A study of Mus musculus with 12 samples.

Results

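The comparison described here set muscles that carried a Dux vector with its switch off against muscles that carried an empty vector, both from mice on normal chow. It used 6 of the 12 RNA-seq libraries of the series, 3 a side, and 12751 of the 12752 genes in the count table passed the filter on low counts and were tested. The tissue was the whole tibialis anterior, a muscle of the lower leg, of C57BL/6 males injected at 8 weeks of age with adeno-associated virus (AAV) vectors. The empty vector group (EV) received AAV:TET with AAV:MCS, and the Dux vector group (DUX) received AAV:TET with AAV:Dux. AAV:TET was thus common to every group. The labels place the vectors in opposite limbs but do not tie a library to a mouse, so each p-value rests on the variation among libraries, which may be technical. The vector dose and the total days to harvest of these libraries are given in the labels only as ranges. The other 6 libraries, EV_DOX and DUX_DOX, received the same vectors and then chow with 600 mg/kg doxycycline for 2 or 7 days, and served as the induced reference. Totals were 12734457 to 13811999 counts in EV and DUX.

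Dux is the mouse relative of human DUX4, the double homeobox transcription factor whose misexpression in muscle causes facioscapulohumeral muscular dystrophy. Both factors are normally active in the early embryo, where Dux switches on, among others, the Zscan4 and Usp17l genes that adult muscle keeps silent. In an inducible vector the transgene should stay off until doxycycline is given, and any transcription before that is called leak. The comparison of DUX with EV therefore asks how much Dux activity, and which other differences, the uninduced vector brings with it.

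No gene differed between DUX and EV at an adjusted p under 0.05 in edgeR's quasi-likelihood test, which is 0 called and 0% of the 12751 genes. The smallest adjusted p was 0.179. On the doxycycline chow the same test called 1905 genes higher (14.9%) and 1319 lower (10.3%) with the Dux vector. Limma-voom also called 0 genes for DUX against EV, whereas DESeq2 called 60 higher (0.471%) and 93 lower (0.729%). At an unadjusted p under 0.05, 983 genes were higher in DUX (7.71%) and 1029 lower (8.07%), together 15.8%. In 1436 genes (11.3%) all 3 DUX libraries lay above all 3 EV libraries, and in 1484 genes (11.6%) all lay below. Within edgeR the number of calls depended mostly on 1 library: without EV 2, 68 genes were called higher and 50 lower. DESeq2 on all libraries also called 28 of the 68 and 31 of the 50. The genes at an unadjusted p under 0.05, 2012 in all, were 1245 without EV 1 and 1178 without EV 3.

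Leak was first looked for in genes with almost no counts in EV_DOX and a higher level in DUX_DOX, here called silent induced genes. These were the 33 genes called higher in DUX_DOX than in EV_DOX with at most 0.1 CPM (counts scaled to library size) in EV_DOX and at least 1 CPM in DUX_DOX, a choice that used neither EV nor DUX. Their summed counts were 5, 11 and 8 in the EV libraries and 17, 15 and 20 in the DUX libraries. All 3 DUX libraries were above all 3 EV libraries, at a level far below induction. EV_DOX held 7, 7 and 5 of these counts, and DUX_DOX held 6502, 11508 and 7799. The DUX to EV ratio of summed CPM was 2.12, and the depth-scaled ratio had a 95% counting interval of 1.29 to 3.60. The two-sided exact permutation p was 0.1, the smallest that 3 against 3 libraries can give. Over the 23 of these genes with at least 5 CPM in DUX_DOX the ratio was 3.57, and over the 61 genes at up to 0.5 CPM in EV_DOX it was 1.47 with an exact permutation p of 0.2. Without DUX 3 the exact permutation p over the 33 genes was also 0.2, and the ratio 1.99. The summed level was 1.33 ± 0.170 CPM in DUX (SD, n = 3), which was 0.208% of the DUX_DOX level. EV stood at 0.0982% and EV_DOX at 0.0752% of the DUX_DOX level. Intervals and floors here cover counting error only.

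**Figure D1:**
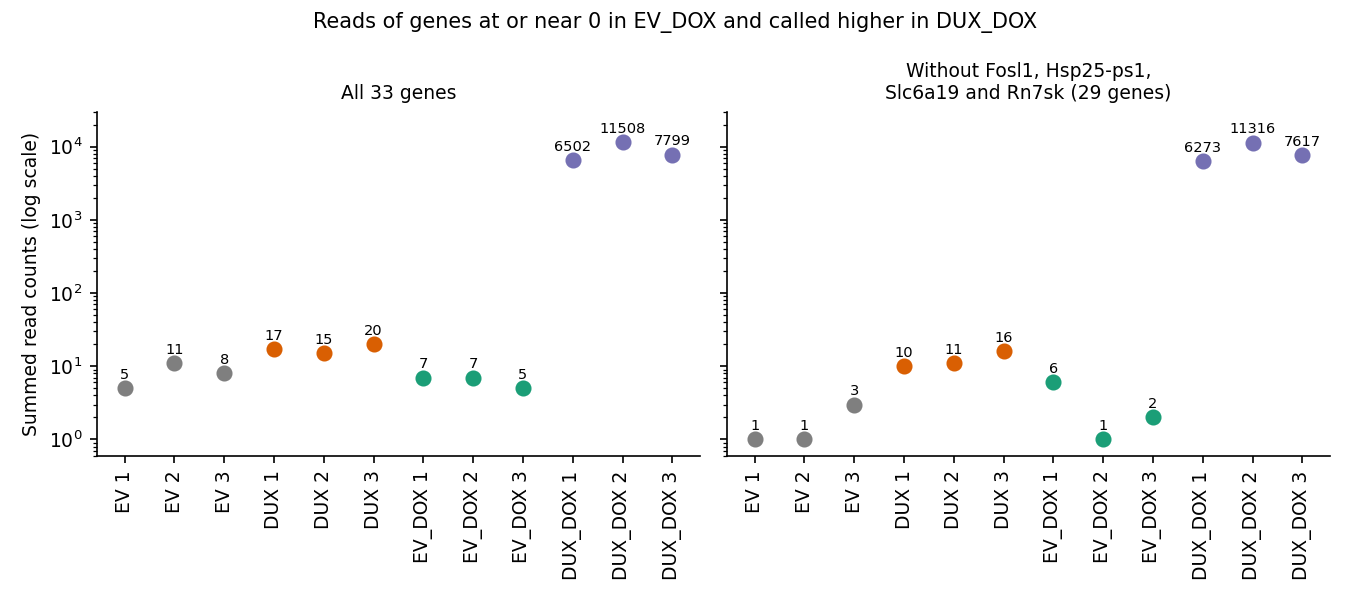
Summed read counts of the silent induced genes in each of the 12 libraries, on a log axis, for all 33 genes (left) and for the 29 left after removing Fosl1, Hsp25-ps1, Slc6a19 and Rn7sk (right). The DUX libraries hold 15 to 20 counts over all 33 genes, the EV libraries 5 to 11 and the DUX_DOX libraries 6502 to 11508.

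Of the 33 genes, 18 had a count in DUX and 8 in EV. Gm11543, a predicted gene of chromosome 11, had 0, 0 and 0 counts in EV, 2, 2 and 5 in DUX and 4035 over DUX_DOX. It was thus seen in each DUX library and in no EV library. Tmem92, a gene for a transmembrane protein, had 0, 0 and 2 counts in EV, 2, 2 and 4 in DUX and 4832 over DUX_DOX. Usp17le, a deubiquitinase of the Usp17l family, had 0 counts in EV and 0, 2 and 1 in DUX, and Rfpl4b had 0 in EV and 2, 0 and 0 in DUX. Counts this small are at or near the floor of 3 counts per library, so no fold is given for single genes.

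The Dux locus and the Zscan4 genes gave few reads in any uninduced library. AW822073, a transcript at the Dux locus on chromosome 10 (58222972 to 58224930, GRCm38), had 0 counts in the 3 EV libraries, 0, 1 and 2 in DUX, 1 over EV_DOX and 143 over DUX_DOX. The 8 measured Zscan4 genes, which encode zinc finger proteins of the early embryo, summed to 0 counts in EV, 2 in DUX and 3 in EV_DOX, against 6675 in DUX_DOX. The DUX sum of the Zscan4 genes was therefore no higher than that of the empty vector on doxycycline. Reads of such nearly identical genes cannot be assigned to single members with certainty.

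A group of neighbours, picked out after the values were seen, held many of the DUX reads. Tmem92, Gm11546, AA623943 and Gm11543 lie within 51.7 kb on chromosome 11 (94777217 to 94828930, GRCm38). Together they had 0, 0 and 2 counts in EV, 4, 4 and 10 in DUX, 3, 1 and 0 in EV_DOX and 9489 over DUX_DOX. The other 29 of the 33 genes summed to 22 counts in EV and 34 in DUX. Of the 24 EV counts, 19 came from Fosl1, an AP-1 subunit, Hsp25-ps1, Slc6a19, an amino acid transporter, and Rn7sk, a small nuclear RNA. The 29 genes besides these had 1, 1 and 3 counts in EV, 10, 11 and 16 in DUX and 6, 1 and 2 in EV_DOX. Both of these groupings were made after seeing the counts and were not tested, nor was the origin of the DUX reads.

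To show what sequence lies before genes at both ends of this range, the 250 bases upstream of the RefSeq start of Zscan4c and Gm11543 are given, as 1 gene with 0 reads in DUX and 1 with reads in each DUX library. They come from the RefSeq promoter table on GRCm38.p6, in which 14 symbols of the silent induced genes were found. Zscan4c is at chr7:11005495-11005744 on the plus strand and Gm11543 at chr11:94829341-94829590 on the minus strand. Capitals mark the letters TGATTNAAT, a core of the sequence that Dux proteins are known to bind.
Zscan4c: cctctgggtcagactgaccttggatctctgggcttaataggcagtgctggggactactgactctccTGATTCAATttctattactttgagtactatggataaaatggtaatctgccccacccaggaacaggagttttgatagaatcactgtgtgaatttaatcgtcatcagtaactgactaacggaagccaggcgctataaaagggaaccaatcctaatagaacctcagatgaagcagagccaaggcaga
Gm11543: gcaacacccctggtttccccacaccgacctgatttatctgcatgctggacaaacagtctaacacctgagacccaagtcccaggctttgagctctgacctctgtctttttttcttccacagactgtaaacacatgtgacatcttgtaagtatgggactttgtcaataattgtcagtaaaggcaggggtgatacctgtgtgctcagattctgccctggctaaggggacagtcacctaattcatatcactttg

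In all, 3 overlapping forms of the motif were searched on both strands of these 250 bases. TGATTNAAT was present before 4 of the 14 silent induced genes in the table (Zscan4b, Zscan4c, Zscan4f and Gm21761) and before 0.658% of all 32851 promoters. The Zscan4 genes are close copies of each other, so their matches are not independent. Each of the 14 symbols was counted once, whereas repeated symbols were kept among all promoters. GATTNAATC was present before 1 of the 14 (Gm21761) and 0.247% of all promoters. The full TGATTNAATCA was before 0 of the 14 and 0.0304% of all. The Zscan4c match began 184 bases before the gene start, and the Gm11543 window held none of the 3 forms. A match is a description of the letters and not a binding site.

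Leak was next looked for in the whole induced response, in contrasts that share no library. The 1905 genes higher in DUX_DOX had a median log2 fold change of 0.03 for DUX against EV, and 55.9% of them were above 0, where all genes had a median of 0.00 and 50.2% above 0. The 1319 genes lower in DUX_DOX had a median of -0.06, and 36.5% were above 0. Both medians lay on the side of induction, by small amounts, and that of the lower genes was -0.04 with an offset for transcript length, described further on. Per library, the median of the higher genes relative to the mean of EV and DUX was -0.02, -0.03 and 0.01 in EV and 0.02, 0.03 and 0.00 in DUX, so the groups overlapped. That of the 1319 lower genes was 0.04, 0.04 and 0.02 in EV and -0.03, -0.04 and -0.03 in DUX, without overlap. Of the 1319, 275 were lower in DUX at an unadjusted p under 0.05 (20.8%) and 57 higher (4.32%), beside 8.07% and 7.71% of all genes. With the offset 189 were lower (14.3%) and 61 higher (4.62%), beside 5.60% and 6.13%. Among genes changed more than 2-fold by induction, the 618 higher genes had a median of 0.09 and the 87 lower genes a median of -0.32. The 618 also overlapped per library, at -0.06, -0.09 and 0.03 in EV and 0.04, 0.07 and 0.01 in DUX. Of these 87 genes, 31 were lower in DUX at an unadjusted p under 0.05 (35.6%), beside 8.07% of all genes. The 31 became 11 without EV 1 and 17 without DUX 2. With the offset the median of the 87 was -0.33, with 26 lower (29.9%) and 3 higher (3.45%). Per library, the median of these 87 genes relative to the mean of EV and DUX was 0.25, 0.02 and 0.17 in EV and -0.16, -0.18 and -0.07 in DUX. EV 2 stood nearest to DUX here. Across the 12751 genes the Spearman correlation of the 2 fold changes was 0.14, a description across genes that are not independent.

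Genes of stress and early response differed in part in the direction of induction, and a few are given here. Junb, an AP-1 transcription factor subunit, was at 4.08, 6.01 and 3.68 CPM in EV and 8.86, 9.54 and 8.97 CPM in DUX. The groups did not overlap, and the log2 fold change was 0.99 (SE 0.19, edgeR adjusted p = 0.179). Without EV 2 the adjusted p of Junb was 0.0224. Induction gave a log2 difference of 2.06 for Junb, and this was larger than the difference on normal chow (adjusted p of the interaction 0.0175).

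Cryab, the small heat shock protein alphaB-crystallin that protects desmin and other filaments in muscle, was at 357, 485 and 330 CPM in EV and 688, 742 and 563 CPM in DUX. All DUX libraries lay above all EV libraries, with a log2 fold change of 0.77 (SE 0.15, edgeR adjusted p = 0.179). DESeq2 called it with an adjusted p of 0.00113. On doxycycline the log2 difference of Cryab was 3.59. Jund, another AP-1 subunit, was at 13.7, 13.2 and 9.90 CPM in EV and 18.4, 19.7 and 20.5 CPM in DUX, with a log2 fold change of 0.67 (SE 0.15). Ankrd2, a stretch-responsive ankyrin repeat protein of muscle, was at 28.1, 61.2 and 29.7 CPM in EV and 68.4, 80.2 and 53.9 CPM in DUX. Its groups overlapped through EV 2.

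The list of 25 immediate early genes, which are switched on within minutes of many stimuli, had 12 members higher in DUX at an unadjusted p under 0.05 and 0 lower, with a median log2 fold change of 0.36, where 7.71% of all genes were higher at that p and 8.07% lower. Each list count below is to be read beside these shares of all genes. Without EV 3 or without DUX 3 the 12 became 6. With all libraries edgeR called no member of any of the 36 lists examined at an adjusted p under 0.05. DESeq2 called members of 19 lists, Jun and Jund among them, and edgeR without EV 2 called members of 16. Of the 25, 23 were called higher in DUX_DOX. The 29 heat shock and oxidative stress genes were split, 6 higher and 3 lower, with a median of 0.16. The 6 became 2 without EV 1 and 3 without EV 3. Srxn1, the sulfiredoxin of the antioxidant response, was at 20.1, 18.0 and 21.1 CPM in EV and 13.4, 16.9 and 15.4 CPM in DUX, the opposite direction to its log2 difference of 1.98 on doxycycline. The p53 list had 5 of 34 higher and 3 lower, a share of lower genes near that of all genes, with Mdm2, the p53 ubiquitin ligase, at a log2 fold change of -0.32. The 5 became 2 without DUX 2 and 3 without DUX 1, EV 1 or EV 3. The integrated stress and unfolded protein list had 3 of 28 higher and 0 lower, led by the transcription factor Atf5 at 0.53, and the 3 became 8 without EV 2 and 2 without EV 3 or DUX 2. Dux target and 2-cell embryo genes numbered 23 measured, with 1 higher and 1 lower at an unadjusted p under 0.05. Many of the 23, the Zscan4 and Usp17l genes among them, had no or only a few reads in EV and DUX. Such members could hardly pass that p, so the 1 and the 1 say little about leak. In DUX_DOX 18 of the 23 were called higher and 2 lower. The member higher in DUX was Zfp750, at a log2 fold change of 1.03, opposite to its log2 difference of -2.26 on doxycycline. The member lower in DUX was Zfp809, a zinc finger repressor, at 3.29, 3.85 and 3.30 CPM in EV and 2.77, 2.23 and 1.79 CPM in DUX.

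**Figure D2:**
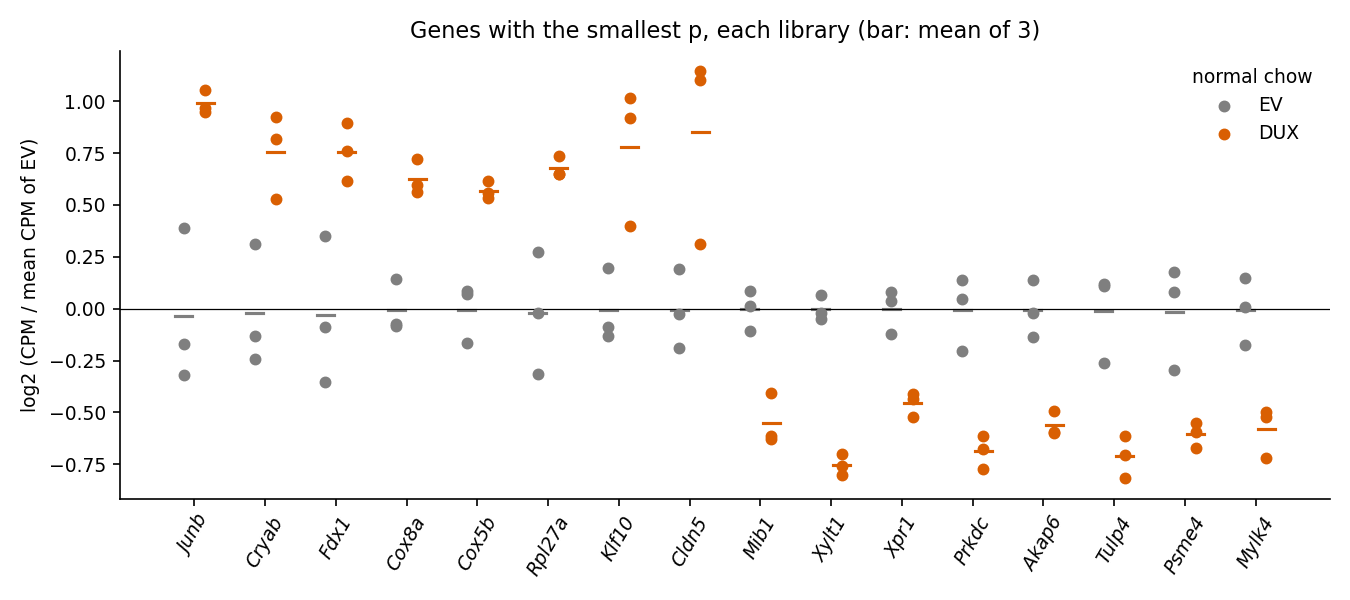
Level of 16 of the genes picked for a small p without overlap, in each EV and DUX library. Values are log2 of CPM over the mean CPM of EV, with a bar at the mean of each group of 3. Atp6v0c, Cenpv, Dhdh and Pank3, picked in the same way, are not drawn. The groups do not overlap in any of these genes, which were chosen for that, and Junb has the largest mean difference of the 8 genes higher in DUX.

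The genes with the smallest p were chosen on this contrast, so their values are a description. The 10 higher in DUX were Atp6v0c, a proton pump subunit, Junb, Fdx1, the mitochondrial electron carrier ferredoxin, Cenpv, Cryab, Cox8a and Cox5b, subunits of cytochrome c oxidase, Rpl27a, a ribosomal protein, Klf10, a TGF-beta-inducible transcription factor, and Cldn5, the claudin of endothelial tight junctions. Their log2 fold changes ran from 0.50 (Cenpv) to 0.99 (Junb). Fdx1 was at 13.1, 17.7 and 10.9 CPM in EV and 23.6, 21.3 and 25.9 CPM in DUX, with a log2 fold change of 0.76 (SE 0.15). Cldn5 was at 8.70, 10.1 and 7.75 CPM in EV and 18.98, 11 and 19.6 CPM in DUX, and DUX 2 came close to EV. For Cldn5 the adjusted p fell below 0.05 without EV 2 and without DUX 2.

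The 10 lower in DUX were Mib1, Xylt1, Xpr1, Dhdh, Prkdc, Akap6, Pank3, Tulp4, Psme4 and Mylk4. Mib1, a ubiquitin ligase of Notch ligand endocytosis, had the smallest unadjusted p of all genes, with 60.2, 65.6 and 68.9 CPM in EV and 42.0, 48.9 and 42.4 CPM in DUX. Its log2 fold change was -0.55 (SE 0.09, edgeR adjusted p = 0.179). Xylt1, which starts glycosaminoglycan chains on proteoglycans, was at 12.0, 11.1 and 11.3 CPM in EV and 7.04, 6.77 and 6.57 CPM in DUX. Psme4, a proteasome activator, was at 410, 317 and 439 CPM in EV and 244, 257 and 266 CPM in DUX. Akap6, the anchor of protein kinase A at the nuclear envelope and reticulum of muscle, was lower by a log2 fold change of -0.56 (SE 0.11). The transcripts of these genes were long, from 5323 bases in Dhdh to 14847 bases in Akap6.

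Transcript length went with the direction of the difference over the whole table. Length, taken as the longest GENCODE transcript, was known for 12722 genes (99.8%). The Spearman correlation of length with the DUX minus EV fold change was -0.43 across genes, and that of DUX_DOX minus EV_DOX was -0.06. With the median transcript length of each gene in place of the longest, the first was -0.24. In the shortest of 5 length classes (67 to 1963 bases) the median log2 fold change was 0.15, with 18.3% of genes higher and 1.93% lower at an unadjusted p under 0.05. In the longest class (5349 to 123179 bases) it was -0.16, with 1.41% higher and 21.8% lower. Genes called by DESeq2 as higher in DUX had a median length of 1428 bases and those called lower 6440 bases.

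The length trend belonged to single libraries and not only to the groups. Relative to the mean of all 12 libraries, the correlation of level with length was 0.38, 0.10 and 0.31 in EV and -0.10, -0.22 and -0.17 in DUX. It was 0.27, -0.12 and -0.26 in EV_DOX and -0.12, 0.10 and -0.23 in DUX_DOX. EV 1, EV 3 and EV_DOX 1 thus favoured long transcripts most, and the spread within EV_DOX was wider than the gap between EV and DUX. A fit that takes out a length trend for each library (a length offset) brought the correlation of the fold change to -0.01. This drop follows from how the offset is made, which would also take out any real difference that goes with length. With the offset, 782 genes were higher (6.13%) and 714 lower (5.60%) at an unadjusted p under 0.05, and the smallest adjusted p was 0.260. Whether the length trend comes with the vector was not tested.

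**Figure D3:**
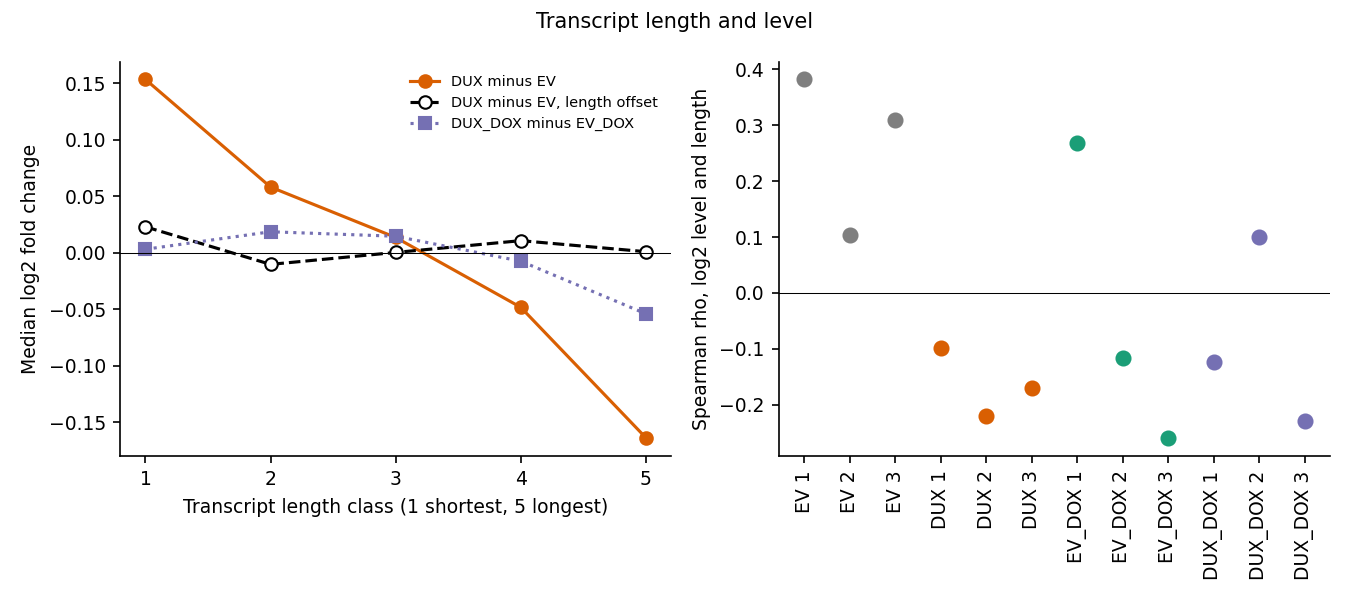
Left, median log2 fold change in 5 classes of transcript length for DUX minus EV as deposited (filled circles), with the length offset (open circles) and for DUX_DOX minus EV_DOX (squares). The offset flattens the classes by construction. Right, Spearman correlation across genes of each library's log2 level, relative to the mean of the 12 libraries, with transcript length, where EV 1, EV 3 and EV_DOX 1 are the highest at 0.38, 0.31 and 0.27.

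Many genes for respiration and ribosomes, whose transcripts are short (list medians of 1046 and 1106 bases), had higher levels in DUX, while those of glycolysis were split. The glycolysis and glycogen list had 4 of 30 higher and 2 lower at an unadjusted p under 0.05, with a median log2 fold change of 0.07 that was 0.0090 with the offset, and the 4 became 2 without EV 1, EV 3 or DUX 1. Of 79 oxidative phosphorylation subunits, 43 were higher and 0 lower at an unadjusted p under 0.05, with a median log2 fold change of 0.30 that was 0.16 with the length offset, where 24 passed that p. The 43 became 16 without EV 1, 15 without EV 3, 26 without DUX 2 and 27 without DUX 3, with medians of 0.24 to 0.31. Cox5b was at 244, 242 and 205 CPM in EV and 334, 340 and 353 CPM in DUX, with a log2 fold change of 0.57 (SE 0.12, edgeR adjusted p = 0.179) and 0.40 with the offset. Ndufa1, a complex I subunit, was at 51.6, 72.5 and 59.8 CPM in EV and 101, 91.6 and 98.8 CPM in DUX. Neither gene overlapped between the groups.

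Of 81 cytosolic ribosomal protein genes, 54 were higher and 0 lower, with a median of 0.30 that was 0.15 with the offset. The 54 became 19 without EV 1 and 35 without EV 3. Rpl27a was at 23.3, 35.0 and 28.5 CPM in EV and 45.5, 48.2 and 45.4 CPM in DUX. Its EV_DOX levels of 36.1, 45.9 and 48.2 CPM reached those of DUX. Rplp2, a protein of the ribosomal stalk, had a log2 fold change of 0.59 (SE 0.14). Of 36 genes of fatty acid oxidation and the TCA cycle, all had a fold change above 0 and 19 were higher at an unadjusted p under 0.05, with a median of 0.27 and 0.22 with the offset. The 19 became 4 without EV 3, 7 without DUX 3 and 11 without DUX 1. Acadl, the long-chain acyl-CoA dehydrogenase, was at 255, 285 and 243 CPM in EV and 379, 307 and 366 CPM in DUX. Fabp3, the fatty acid carrier of oxidative muscle, had a log2 fold change of 0.72 (SE 0.19). Induction went the other way in this list, with 15 of 36 called lower in DUX_DOX and 0 higher. The cytochrome c gene Cycs was at 85.4, 121 and 97.7 CPM in EV and 174, 148 and 158 CPM in DUX. The 9 mitochondrially encoded genes all had fold changes above 0 with a median of 0.23, and mt-Nd6, the complex I gene of the light strand, was the 1 of them past an unadjusted p of 0.05. That 1 became 5 without EV 2 and 3 without DUX 3.

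**Figure D4:**
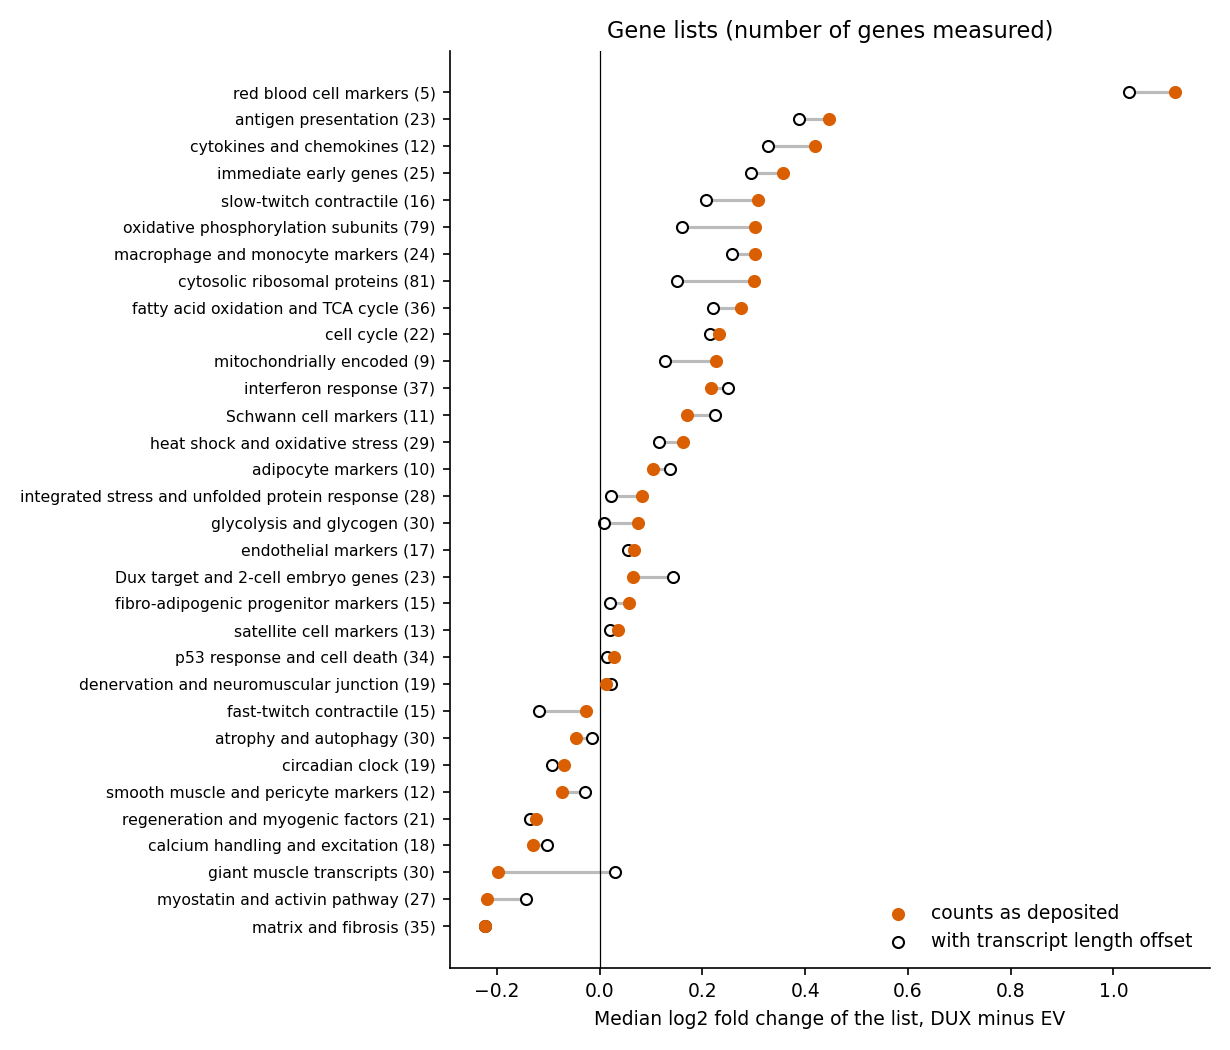
Median log2 fold change (DUX minus EV) of each gene list with at least 5 genes measured, from the counts as deposited (filled) and with the transcript length offset (open). Tenocyte markers, at -2.11 in both fits, lie outside the plotted range and are not drawn, and giant muscle transcripts go from -0.20 to 0.03.

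The giant transcripts of muscle, such as those of titin and nebulin, lay on the other side. Of 30, 11 were lower and 0 higher at an unadjusted p under 0.05, with a median of -0.20. With the offset 0 were lower, 2 were higher and the median was 0.03. As these transcripts are long, their shift with the offset follows in part from how the offset is made. The 11 became 6 without EV 1. Dst, the cytoskeletal linker dystonin, was at 615, 496 and 540 CPM in EV and 420, 413 and 437 CPM in DUX, a log2 fold change of -0.38 that was -0.09 with the offset. Birc6, a very large ubiquitin ligase, moved from -0.32 to -0.06 in the same way. Calcium handling genes had 1 of 18 higher and 4 lower, and 0 higher and 2 lower with the offset. Cacna2d1, the alpha2delta subunit of the muscle calcium channel, was at 748, 664 and 730 CPM in EV and 522, 501 and 510 CPM in DUX, and kept a log2 fold change of -0.31 with the offset. Circadian clock genes had 5 of 19 lower, among them Rora and Clock, and 2 with the offset, and the 5 became 3 without DUX 1. Nfil3, named after its value was seen, was the 1 higher, and 0 were higher with the offset.

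Contractile genes marked the tissue as muscle in every library. Actn3, the alpha-actinin of fast fibres, was at 6963, 5693 and 7759 CPM in EV and 5027, 5203 and 4841 CPM in DUX, with a log2 fold change of -0.44 (SE 0.13) and -0.48 with the offset. It was the 1 of 15 fast-twitch genes lower at an unadjusted p under 0.05, with 0 higher, and with the offset 4 were lower and 1 higher. Without EV 2, 3 were higher and 2 lower, and 2 were lower without EV 1 or DUX 2. Slow-twitch genes had 5 of 16 higher and 0 lower, with a median of 0.31 and 0.21 with the offset. The 5 became 1 without EV 1, 3 without DUX 2 and 0 without EV 3. Myoz2, a Z-disc protein of slow fibres, overlapped between the groups through EV 2, at 22.3, 35.2 and 20.9 CPM in EV and 34.5, 40.3 and 37.7 CPM in DUX.

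The myostatin and activin pathway, which restrains muscle growth through activin receptors and Smad2 and Smad3, had 8 of 27 members lower in DUX at an unadjusted p under 0.05, beside 8.07% of all genes, and 0 higher. The median was -0.22, and with the offset it was -0.14 with 7 lower, beside 5.60% of all genes. Without EV 3 or without DUX 2 the 8 became 5. Among the ligands, Mstn (myostatin) was at 31.6, 51.8 and 47.7 CPM in EV and 40.3, 40.5 and 44.0 CPM in DUX, with overlapping groups and a log2 fold change of -0.07 (SE 0.16). Gdf11, the closest relative of myostatin, was at 14.3, 5.05 and 16.3 CPM in EV and 3.56, 4.0 and 3.59 CPM in DUX. Its log2 fold change was -1.68 (SE 0.42, edgeR adjusted p = 0.192, and 0.0224 without EV 2), with EV 2 near DUX. Among the receptors, Acvr2b was at 4.78, 3.45 and 4.53 CPM in EV and 2.29, 2.23 and 2.76 CPM in DUX, a log2 fold change of -0.80 (SE 0.35). Acvr1b, a type I receptor, was at 91.5, 77.4 and 111 CPM in EV and 59.8, 72.3 and 64.0 CPM in DUX. Among the effectors, Smad3 had a log2 fold change of -0.34 (SE 0.11) and Smad2 of -0.24 (SE 0.11), and with the offset these were -0.25 and -0.05. Fst, the inhibitor follistatin, overlapped between the groups.

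Atrophy genes were split, with 4 of 30 higher and 3 lower, and the 4 became 7 without EV 2 and 2 without EV 1, EV 3 or DUX 2. Trim63, the muscle ubiquitin ligase MuRF1, had a log2 fold change of -0.01 (SE 0.14). Fbxo32, the atrogin-1 ligase subunit, had one of -0.05 (SE 0.19). Their groups overlapped. Igfbp5, an insulin-like growth factor binding protein, was at 944, 913 and 1052 CPM in EV and 724, 739 and 841 CPM in DUX. Traf6, a signalling ubiquitin ligase, had a log2 fold change of -0.51 (SE 0.13). Musk, the receptor kinase of the neuromuscular junction, was at 10.0, 8.50 and 9.44 CPM in EV and 5.69, 4.69 and 6.72 CPM in DUX, opposite to its log2 difference of 1.45 on doxycycline. Myh3, the embryonic myosin heavy chain, was at 8.47, 2.81 and 10.1 CPM in EV and 2.06, 2.08 and 1.94 CPM in DUX, with EV 2 nearest to DUX.

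Markers of other cell types also differed, and in bulk tissue fewer cells of a type and less RNA per cell cannot be told apart. Tenocyte markers were lower in DUX in 9 of 12 genes at an unadjusted p under 0.05 and higher in 0, with a median log2 fold change of -2.11. The 9 became 0 without EV 3, where the median was -0.95, and 2 without DUX 2. Their summed level was 347, 195 and 1152 CPM in EV and 176, 114 and 207 CPM in DUX, so EV 2 fell within the DUX range. It was 1097, 225 and 143 CPM in EV_DOX. Kera, the tendon and cornea proteoglycan keratocan, was at 25.2, 5.05 and 54.2 CPM in EV and 5.69, 3.00 and 6.50 CPM in DUX, and Tnmd (tenomodulin) at 12.5, 5.37 and 43.0 against 3.87, 3.69 and 5.38 CPM. The matrix list had 4 of 35 lower and 0 higher, led by the collagen cross-linker Lox and tenascin C (Tnc), both high in EV 1 and EV 3. The 4 became 16 without EV 2, 2 without EV 1, 1 without DUX 1 or DUX 2 and 0 without EV 3. EV 1, EV 3 and EV_DOX 1 were thus the libraries with the most tendon marker RNA within their groups and also those with the strongest positive length trend. In DUX_DOX the 2 did not go together. The tenocyte sums there were 300, 263 and 349 CPM, with length correlations of -0.12, 0.10 and -0.23. The part of tendon RNA in the other differences was not tested.

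**Figure D5:**
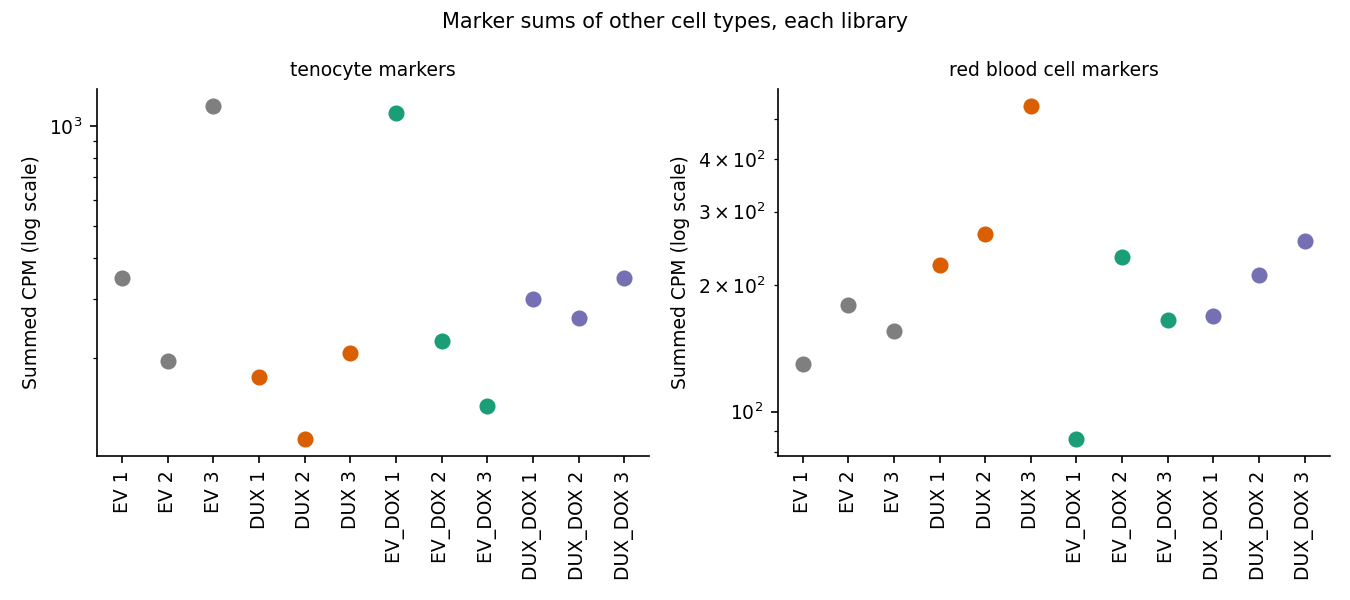
Summed CPM of 12 tenocyte markers (left) and 5 red blood cell markers (right) in each library, on log axes. EV 3 and EV_DOX 1 stand highest for tenocyte markers, at 1152 and 1097 CPM, and DUX 3 highest for red blood cell markers, at 537 CPM.

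Red blood cell markers were higher in DUX in 5 of 5 measured genes at an unadjusted p under 0.05, with a median log2 fold change of 1.12. Without DUX 3 only 2 of the 5 passed and the median was 0.59. Their sum was 130, 179 and 156 CPM in EV and 224, 265 and 537 CPM in DUX, and DUX 3 was well above the others. Hba-a2, an alpha-globin gene, was at 18.6, 25.2 and 18.9 CPM in EV and 32.7, 42.9 and 79.0 CPM in DUX. Hba-a2 and Hba-a1 are nearly identical, so their reads may be shared.

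Immune genes were higher in part. Of 23 antigen presentation genes, 11 were higher at an unadjusted p under 0.05 and 0 lower, with a median of 0.45 and 0.39 with the length offset. The 11 became 4 without DUX 1, 5 without DUX 2 or EV 1 and 19 without DUX 3. H2-Eb1, a class II histocompatibility chain, was at 17.6, 24.8 and 19.6 CPM in EV and 42.0, 37.6 and 28.7 CPM in DUX, a log2 fold change of 0.80 (SE 0.20). Cd74, the class II invariant chain, was at 58.6, 73.5 and 69.8 CPM in EV and 122, 107 and 85.2 CPM in DUX. Neither overlapped between the groups. Macrophage and monocyte markers had 4 of 24 higher and 0 lower, with a median of 0.30 (1 higher and a median of 0.26 with the offset), while 21 of the 24 were called higher in DUX_DOX. The 4 became 0 without EV 1 or EV 2, 1 without DUX 1 and 8 without EV 3. Their summed level was 161, 174 and 248 CPM in EV and 255, 230 and 233 CPM in DUX, so the groups overlapped through EV 3. Cd68, a lysosomal protein of macrophages, overlapped as well, and Ccl6, a chemokine of myeloid cells, was at 4.94, 4.81 and 5.91 CPM in EV and 10.9, 7.93 and 7.99 CPM in DUX. Interferon response genes had 2 of 37 higher and 0 lower, a share of higher genes below the 7.71% of all genes. Their sum was 308, 591 and 278 CPM in EV and 679, 682 and 273 CPM in DUX. EV 2, DUX 1 and DUX 2 were thus high and DUX 3 was as low as EV 1 and EV 3. The 2 became 18 without DUX 3, 12 without EV 2, 1 without EV 1, DUX 1 or DUX 2 and 0 without EV 3. Ighm, the immunoglobulin M heavy chain, was lower, at 97.6, 67.2 and 99.4 CPM in EV and 47.8, 54.0 and 51.3 CPM in DUX. Igkc, the kappa light chain and the other measured gene of the B and plasma cell list, was at 0.392, 0.802 and 0.307 CPM in EV and 0.791, 5.23 and 0.448 CPM in DUX. It had a log2 fold change of 2.09 (SE 0.76), with DUX 2 far above the rest and overlapping groups.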

How the data were processed

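The deposited values are raw read counts per gene. Per the submitters' processing notes, the authors used bcl2fastq 2.17.1.14, STAR and featureCounts with genome build GRCm38. For the latter tools no version, and no gene annotation, is stated there. Sequencing was of poly-A RNA, from 200 ng per library, per the labels' protocols. Genes were tested with edgeR 4.0.16 (R 4.3.3), quasi-likelihood, two-sided, on all 12 libraries with 1 mean per group, TMM factors (0.916 to 1.12), default low-count filter, prior count 0.125 and Benjamini-Hochberg adjustment over 12751 genes at 0.05. CPM use TMM-adjusted totals. The median biological coefficient of variation was 10.6%. DESeq2 1.42.0, limma 3.58.1, other scalings and filters, and offsets for transcript length (GENCODE M21, natural spline with 4 degrees of freedom) or GC content were alternatives, and genes to which DESeq2 gave no adjusted p count as not called. The test was also run on simulated counts, and the outcome is not given here. The members and the 36 gene lists were chosen with earlier results of these data known, and a rule picked the named genes: locus, smallest p without overlap, highest induced level, the 2 smallest p of each list, pathway genes and DESeq2 calls. A gene that the rule picked is not reported here. No 2 libraries of a group were duplicates.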

Additional observations from a re-analysis of the deposited data

Results flagged for a closer look

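Of 64 genes checked, 21 had a vector effect that differed between the chows, by the interaction term of the edgeR fit at an adjusted p under 0.05. Over all 12751 genes, 1326 passed that threshold. Most of the 64 genes were chosen on DUX against EV, which enters the interaction, so the count of 21 describes these genes only. Values are log2, as the effect on doxycycline minus that on normal chow. Larger with doxycycline in the same direction were Cryab at 2.83, Ankrd2 at 2.48, Cd68 at 2.12, Ccl6 at 1.34, Junb at 1.07 and Igfbp5 at -0.65. Fbxo32 was at -0.89, and the sign of its normal-chow effect of -0.05 changed with the settings.

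In the other 14 genes the fitted effects had opposite signs. None of the 14 was called on normal chow, and not all were on doxycycline. With a lower fitted level in DUX than EV and a higher one in DUX_DOX than EV_DOX were Tnc at 5.06, Lox at 2.69, Srxn1 at 2.36, Musk at 2.15, Xylt1 at 1.02, Smad2 at 0.88, Traf6 at 0.64 and Mdm2 at 0.61. Of these 8, Lox, Xylt1 and Traf6 did not pass on doxycycline, with effects of 1.06, 0.27 and 0.13. Smad2 was at -0.24 on normal chow, a sign that changed in 1 setting. With a higher fitted level in DUX and a lower one in DUX_DOX were Zfp750 at -3.29, mt-Nd6 at -1.16, Cycs at -0.80, Acadl at -0.70, Cox5b at -0.68 and Cenpv at -0.63. Of these 6, Zfp750 and mt-Nd6 passed on doxycycline, and Acadl, Cycs, Cenpv and Cox5b did not, with effects of -0.27, -0.14, -0.13 and -0.11.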

How the results depend on the processing

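The count of 0 called genes was 153 with DESeq2 and ran from 0 to 118 with 1 library left out (118 without EV 2, 1 without DUX 2). The other alternatives with all EV and DUX libraries gave 0. With the length offset and 1 library left out, a setting added after seeing the data, calls ran from 0 to 48. Genes at an unadjusted p under 0.05, 2012 as reported, ran from 1178 to 2872 with 1 library left out and from 825 to 2341 with the offset as well (1043, 825, 1030, 1133 and 1211 without EV 1, EV 3, DUX 1, DUX 2 and DUX 3). The DUX to EV ratio of the silent induced genes, 2.12, became 2.40 against all 6 empty vector libraries. This was partly by construction, as the genes were chosen to be low in EV_DOX. The ratio was 1.47 over the 61 genes at up to 0.5 CPM in EV_DOX. It was 1.75 without the gene with the most DUX counts and 1.78 to 2.65 with 1 library left out. Genes called in DUX_DOX had medians of 0.089 (higher) and -0.319 (lower) when changed more than 2-fold. The whole lower set, at any fold, was at -0.0375 with the length offset. With 1 library left out the medians of the whole sets ran from 0.0238 to 0.0478 (higher) and from -0.0674 to -0.0626 (lower). The length correlation of -0.430 was -0.236 with median transcript length and -0.442 to -0.378 with 1 library left out.

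The replicate block left 0 genes called and 1938 at an unadjusted p under 0.05, and changed no call. Same-numbered EV and DUX libraries had correlated deviations of -0.118, 0.219 and 0.169, and not every library correlated best with its own number, so the numbers were not taken to pair them.

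Of 64 named genes, 32 were called by DESeq2, which called 0.471% of all genes higher and 0.729% lower. Many of the 64 were chosen for a small p in this contrast or as DESeq2 calls, so the 32 reflect that choice. Among the 64, the signs of 4 changed. Mstn ran from -0.258 to 0.0685 with 1 library left out, and was at 0.00578 with the offset without EV 2. Trim63 was at 0.00947 with limma-voom and 0.00796 with the replicate block, ran from -0.185 to 0.117 with 1 library left out, and with the offset was at 0.00361 without EV 2 and 0.00117 without DUX 3. Fbxo32 was at 0.102 with the offset and 0.114 with the block and the offset, ran from -0.175 to 0.123 with 1 library left out, and with the offset was at 0.312, 0.0624, 0.0699 and 0.232 without EV 2, EV 3, DUX 2 and DUX 3. Smad2 was at 0.0090 with the offset without DUX 3. Of 33 list medians, 5 moved beyond the SD between libraries with the length offset. The causes were not tested. Low counts limit the silent genes, where 3 counts in a library are about 0.23 CPM.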
